A study of Mus musculus with 36 samples.

Results

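The genes described here are 9 genes of the hemidesmosome and of its ligand laminin-332, chosen by name: *Lama3*, *Lamb3*, *Itga6*, *Itgb4*, *Itga3*, *Col17a1*, *Dst*, *Plec* and *Cd151*. All 9 had a row among the 20181 genes counted in the Lrig1 GL libraries and among the 22587 genes counted in the Lgr5 GL libraries, and all 9 passed the filter on low counts in both tables.

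The data were gene counts from small pools of tdTomato+ cells sorted from mouse tail skin. The cells came from 2 genetic lineage-tracing (GL) lines, Lrig1-EGFP-ires-CreERT2 and Lgr5-EGFP-ires-CreERT2, each crossed to Rosa26-fl/STOP/fl-tdTomato, so that a single topical dose of hydroxytamoxifen at 6 to 8 weeks of age marked the cells in which the Cre was then active and all of their progeny. At 1 week after labelling the tail skin received full-thickness wounds of 2 mm, and the second, overlapping wound was made 8 weeks later. Cells were taken at homeostasis (0w), at 1, 2, 4 and 8 weeks after the first wound (1w pw1, 2w pw1, 4w pw1 and, last, 8w pw1) and at 1 week after the second wound (1w pw2), with 3 libraries in each of the 12 groups. All groups, 0w included, therefore carried the CreERT2 allele, the tdTomato reporter and the labelling, and the sorted zone held the wound bed together with distal hair follicles (HFs). The libraries are named a, b and c where the numbers in the count tables could not be tied to a labelled sample.

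Hemidesmosomes are the junctions that rivet basal keratinocytes to the basement membrane. Outside the cell, the integrin α6β4 (*Itga6*, *Itgb4*) binds laminin-332, a trimer that includes the α3 and β3 chains (*Lama3*, *Lamb3*), with the transmembrane collagen XVII (*Col17a1*) and the tetraspanin CD151 beside it. Inside the cell, plectin (*Plec*) and the epithelial product of *Dst*, BPAG1e, tie the plaque to keratin filaments of *Krt5* and *Krt14*. Integrin α3 (*Itga3*) pairs with integrin β1 on the same laminin and serves in adhesion outside the hemidesmosome. Keratinocytes that enter a wound take these junctions apart, migrate over newly laid laminin-332 and rebuild them later, and collagen XVII is known for the anchoring of HF stem cells in the bulge.

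The 3 genes *Col17a1*, *Lamb3* and *Dst* passed the test across the time course in Lgr5 GL cells, and the sequence around their start sites is shown so that these genes can be placed in the genome. *Col17a1* lies on the minus strand at chr19:47646344-47692094, *Lamb3* on the plus strand at chr1:193207699-193343878 and *Dst* on the plus strand at chr1:33908225-34308661 (GRCm38, GENCODE). The RefSeq windows (GRCm38.p6) hold the 250 bases before and 50 bases after an annotated start and are written 5′ to 3′ on the strand of the gene, at chr19:47691993-47692292 for *Col17a1*, chr1:193301744-193302043 for the upstream of the *Lamb3* starts, and chr1:34011345-34011644 and chr1:34160010-34160309 for the *Dst* starts. Capitals mark matches to a TATA box (TATAAA) or to a p53-family decamer in *Col17a1* and to a GC box (GGGCGG) in *Dst*.
Col17a1: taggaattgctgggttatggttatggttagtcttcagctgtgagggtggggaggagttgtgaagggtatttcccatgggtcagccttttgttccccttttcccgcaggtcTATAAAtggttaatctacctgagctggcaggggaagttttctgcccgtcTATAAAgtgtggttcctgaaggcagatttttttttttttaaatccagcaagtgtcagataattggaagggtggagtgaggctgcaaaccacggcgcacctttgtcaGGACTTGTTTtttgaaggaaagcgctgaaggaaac
Lamb3: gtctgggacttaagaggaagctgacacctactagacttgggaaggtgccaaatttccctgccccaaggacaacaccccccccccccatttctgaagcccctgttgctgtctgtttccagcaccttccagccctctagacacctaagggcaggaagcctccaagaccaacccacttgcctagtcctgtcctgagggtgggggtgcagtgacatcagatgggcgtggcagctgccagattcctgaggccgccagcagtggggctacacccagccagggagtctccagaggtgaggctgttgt
Dst upstream: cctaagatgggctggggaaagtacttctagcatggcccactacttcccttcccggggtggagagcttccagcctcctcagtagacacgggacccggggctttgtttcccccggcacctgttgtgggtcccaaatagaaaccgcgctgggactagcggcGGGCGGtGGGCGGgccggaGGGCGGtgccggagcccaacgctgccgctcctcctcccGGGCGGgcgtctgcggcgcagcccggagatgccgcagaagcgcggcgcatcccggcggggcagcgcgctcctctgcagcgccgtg
Dst downstream: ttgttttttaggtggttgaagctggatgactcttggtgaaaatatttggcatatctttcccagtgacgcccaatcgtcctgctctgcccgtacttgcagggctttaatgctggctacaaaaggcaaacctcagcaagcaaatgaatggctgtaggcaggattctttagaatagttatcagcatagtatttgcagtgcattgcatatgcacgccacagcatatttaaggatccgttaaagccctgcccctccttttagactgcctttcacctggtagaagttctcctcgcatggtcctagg

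The table of windows held 9 windows for 5 of the members, *Lamb3*, *Col17a1*, *Dst*, *Cd151* and *Itga3*, and the motifs were searched in these alone. TATAAA stood 140 and 91 bases before the *Col17a1* start and in no other of these windows, against 13.6% of the 32851 mouse windows searched on both strands. The p53-family decamer, which is its own reverse complement, began 15 bases after the *Col17a1* start and also had a match in a *Cd151* window, against 8.36% of all windows. GGGCGG was found 4 times in the upstream *Dst* window and in windows of *Cd151* and *Itga3*, against 35.7% of all windows. The AP-1 motif TGANTCA was found in 1 of the 9 windows, that of *Itga3*, against 7.81% of all windows. The printed windows of *Lamb3* and the downstream window of *Dst* held none of these 4 motifs. A match describes the letters and is not a measured binding site.

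The libraries were shallow and variable, which sets how small a change could be called. Lrig1 GL libraries held 765252 to 3365666 counts and Lgr5 GL libraries 1297798 to 6960537, and the biological coefficient of variation was 0.698 and 0.662. Every member was counted in every library, with lowest counts of 63 and 56. The basal keratinocyte markers *Krt5* and *Krt14* were high in all libraries. Of 8 immune markers only 2 had a row in either count table, and these summed to at most 33.3 CPM (counts scaled to the size of the library) in any library. The others, *Cd3e*, *Cd3g*, *Trdc*, *Lyz2*, *Cd207* and *Itgam*, had no row in either table, so no level can be given for them. Bulge markers, led by *Krt15*, marked Lgr5 GL cells at 0w and sebaceous and differentiation markers were higher in Lrig1 GL cells, as given below. In bulk pools such as these, fewer cells of a type and less RNA per cell cannot be told apart. Levels below are CPM after TMM scaling, changes are log2 fold changes with their standard error (SE) from edgeR's quasi-likelihood fit, and a call against 0w needs a Benjamini-Hochberg adjusted p under 0.05 over all genes and a log2 fold change above 1. All comparisons against 0w in a population share the same 3 libraries at 0w. Where the CPM of 2 groups are said not to overlap, the share of all genes without overlap was not computed.

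Per kilobase of exon, *Col17a1* was the most abundant member at 0w in both populations, at 407 ± 169 CPM per kb in Lgr5 GL cells and 176 ± 82.7 in Lrig1 GL cells (SD, n = 3). In Lgr5 GL cells *Cd151* (97.2 ± 12.5), *Lamb3* (86.0 ± 27.1) and *Itgb4* (58.0 ± 24.9) followed, and *Plec* stood at 32.0 ± 4.86 CPM per kb. The differences between *Cd151* and *Lamb3* and between *Lamb3* and *Itgb4* were within the spread of their libraries. *Itga6*, *Itga3*, *Lama3* and *Dst* lay between 15.8 and 17.9 CPM per kb and could not be ordered, and the exon length of *Dst* includes exons of its neuronal and muscle forms, which lowers its value per kb. In Lrig1 GL cells the order was similar, with *Cd151* at 76.0 ± 34.6, *Itgb4* at 40.4 ± 14.3, *Lamb3* at 37.8 ± 12.4 and *Plec* at 31.1 ± 7.60 CPM per kb.

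In Lgr5 GL cells 3 of the genes fell in the weeks after the first wound. At 1w pw1 *Dst* was already lower and at 4w pw1 *Lamb3*, *Dst* and *Col17a1* were all lower, with the values and their errors given gene by gene below. Across the time course 3 of 9 members were called (edgeR adjusted p of 0.00974 for *Lamb3*, 0.0278 for *Dst* and 0.0465 for *Col17a1*), where 1.13% of the 18025 genes tested were called. *Itga6* followed at an adjusted p of 0.0544, and 8 of the 9 members had an unadjusted p under 0.05, as did 16.9% of all genes.

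*Lamb3*, the β3 chain of laminin-332, stood at 706, 634 and 366 CPM in the 3 libraries at 0w and at 461, 225 and 403 CPM at 1w pw1. It read 204, 182 and 203 CPM at 2w pw1 and 101, 150.4 and 155 CPM at 4w pw1, and then 201, 282 and 224 CPM at 8w pw1 and 196, 230.1 and 247 CPM at 1w pw2. All libraries from 2w pw1 onwards lay below the lowest library at 0w, while 1w pw1 overlapped with 0w. The log2 fold change was -2.06 ± 0.31 (SE) at 4w pw1 with an edgeR adjusted p of 0.0140, in a comparison that called 0.155% of all genes and called 0.105% of all genes lower. At 2w pw1, 8w pw1 and 1w pw2 it was -1.53 ± 0.30, -1.27 ± 0.30 and -1.34 ± 0.30, with adjusted p of 0.151, 0.463 and 0.448, so these values did not pass.

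*Dst*, which encodes the plaque protein BPAG1e in epithelia, stood at 722, 899.8 and 323 CPM at 0w and at 253, 203 and 221 CPM at 1w pw1. At 4w pw1 its 3 libraries were close together at 174, 167 and 171 CPM, and at 8w pw1 they read 309, 388 and 267 CPM. The libraries at 1w pw1 and 4w pw1 all lay below those at 0w, whereas those at 8w pw1 and 1w pw2 overlapped with 0w through its replicate c. The log2 fold change was -1.52 ± 0.32 at 1w pw1 (edgeR adjusted p = 0.0327), where 1.29% of all genes were called and 0.86% were called lower, and -1.93 ± 0.33 at 4w pw1 (edgeR adjusted p = 0.0282). *Dst* was the only member called at 1w pw1.

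*Col17a1*, the hemidesmosomal transmembrane collagen, stood at 3000.1, 3069 and 1272 CPM at 0w, at 1113, 911 and 1120.2 CPM at 1w pw1 and at 945, 728 and 568 CPM at 4w pw1. At 8w pw1 it read 1042, 1699 and 1114 CPM and at 1w pw2 895, 1665 and 1277 CPM. Replicates a and b at 0w were far above every later library, and replicate c at 0w was close to the highest libraries at 1w pw1. The log2 fold change was -1.71 ± 0.32 at 4w pw1 (edgeR adjusted p = 0.0438) and -1.22 ± 0.32 at 1w pw1 (adjusted p = 0.0634).

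**Figure D1:**
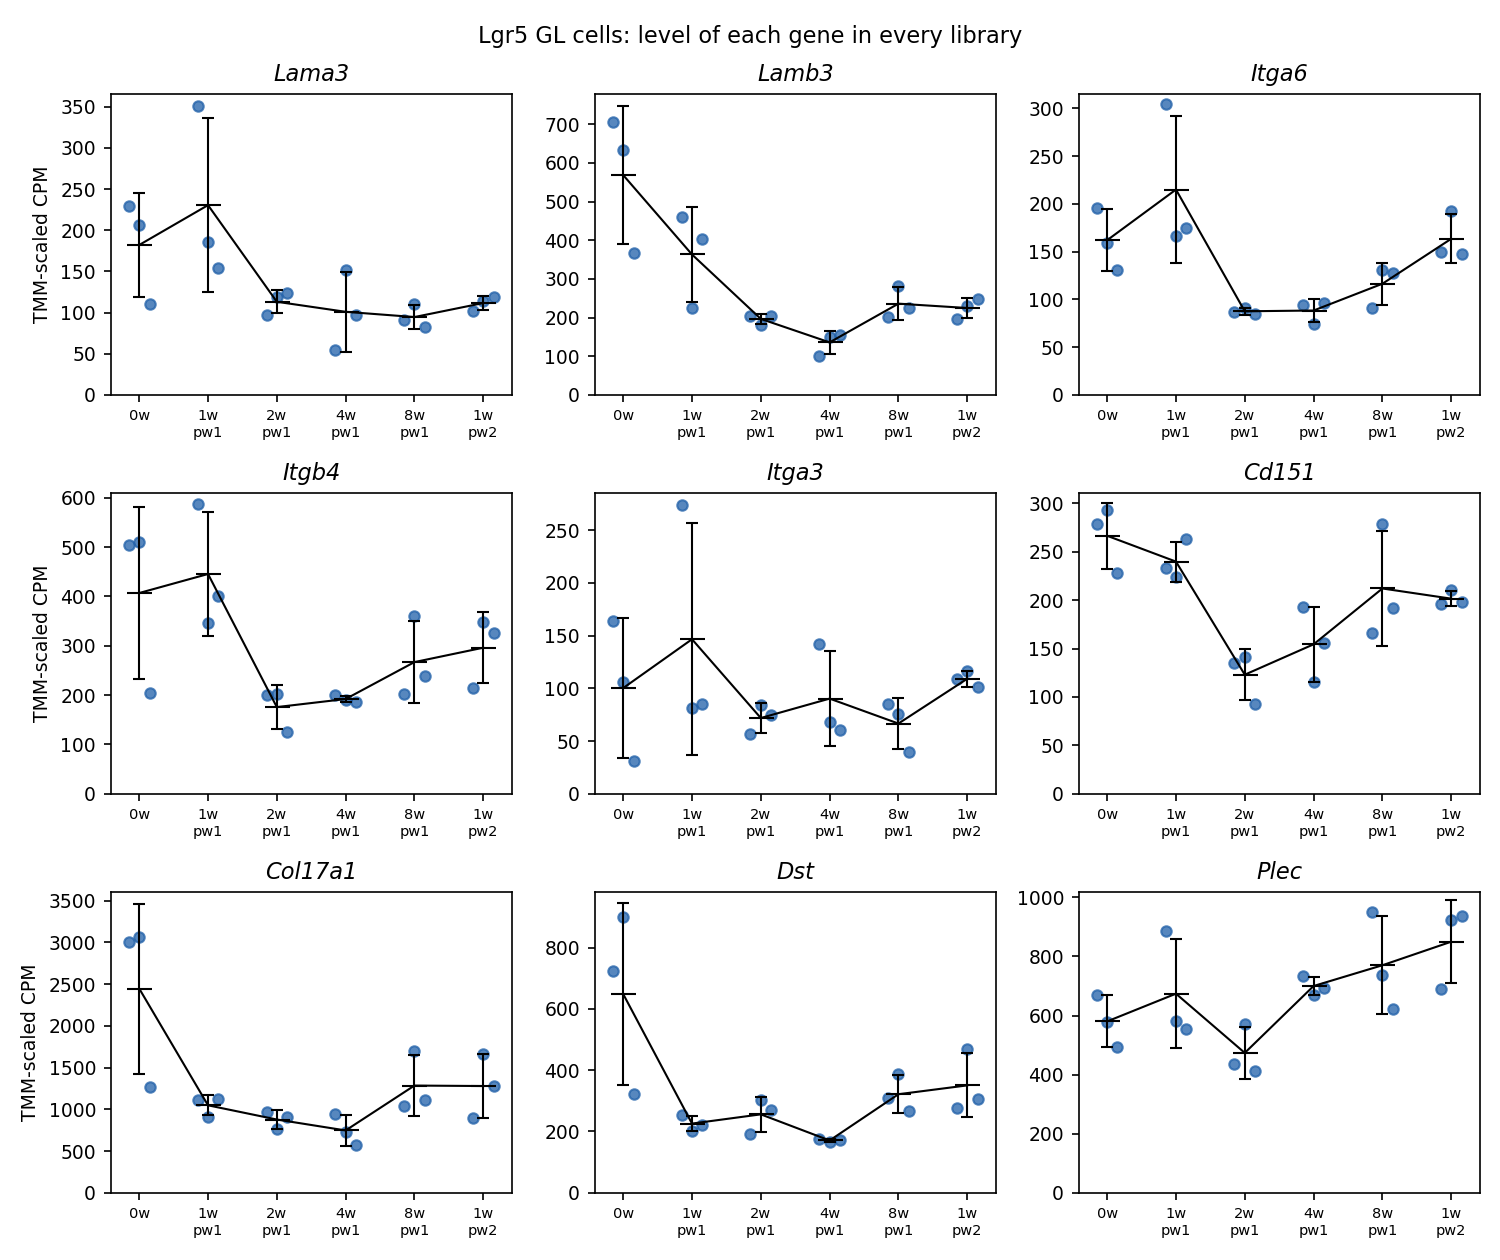
Level of each of the 9 members in Lgr5 GL cells (y axis, TMM-scaled CPM, starting at 0) at the 6 time points (x axis); points are single libraries, and bars with whiskers are the mean and SD of 3 libraries. *Lamb3* lies between 101 and 155 CPM at 4w pw1 against 366 to 706 CPM at 0w, and *Dst* between 167 and 174 CPM at 4w pw1 against 323 to 899.8 CPM at 0w.

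These calls rested on few libraries. The 3 libraries at 4w pw1 held 1359006, 2116933 and 1297798 counts, in a population with a median of 4284763. Replicate a at 4w pw1 had the lowest mean correlation to the other libraries of its group in Lgr5 GL cells, at 0.742. Without 0w replicate a, none of the 4 calls against 0w passed, with adjusted p of 0.0590 for *Lamb3*, 0.112 for *Dst* and 0.140 for *Col17a1* at 4w pw1 and 0.0820 for *Dst* at 1w pw1. Without 4w pw1 replicate a the adjusted p of *Lamb3* was 0.0726, and *Lamb3* at 4w pw1 was called in the remaining 16 of 18 fits that left out a library. *Dst* at 4w pw1 was lost without 0w replicate b (adjusted p = 0.1002) or any library at 4w pw1 (0.0868, 0.110 and 0.172 without a, b and c), and *Dst* at 1w pw1 without 0w replicate b (0.117) or any library at 1w pw1 (0.0915, 0.0681 and 0.0538). *Col17a1* at 4w pw1 was called in 7 of the 18 fits, with adjusted p up to 0.243 without 4w pw1 replicate c. Across the time course *Lamb3* was called in 18 of 18 such fits, *Dst* in 14 and *Col17a1* in 3. The number of members called ranged from 1 to 5. The number of all genes called in these fits is not given here, so no conclusion is drawn from that range. With 2 surrogate variables, *Dst* at 1w pw1 (adjusted p = 0.187) and *Col17a1* across the time course (0.113) were lost, and with the size factors of DESeq2 *Col17a1* at 4w pw1 was lost (0.0523).

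Markers of the bulge were also lower at 1w pw1, 2w pw1 and 4w pw1. At 8w pw1 their sum was back within its range at 0w, whereas *Lamb3* still lay below 0w and *Dst* and *Col17a1* overlapped with it. The 6 bulge markers, all detected, summed to 16819 to 23397 CPM at 0w, 5090 to 14227 CPM at 1w pw1, 7016 to 8997 CPM at 2w pw1 and 4012 to 6809 CPM at 4w pw1. At 8w pw1 the sum was 22116 to 23312 CPM and at 1w pw2 13492 to 17916 CPM, most of it *Krt15*, which alone averaged 16189 CPM at 0w and 19196 CPM at 8w pw1. Marker by marker, 6 of 6 had a log2 fold change below 0 at 1w pw1, 2w pw1 and 4w pw1, with medians of -1.40, -1.38 and -1.72, and 5 of 6 at 8w pw1 and 6 of 6 at 1w pw2, with medians of -0.59 and -0.46. *Krt15* itself changed by -2.27 ± 0.29 at 4w pw1 (edgeR adjusted p = 0.00340), and *Krt5*, the keratin partner of the plaque, by -0.91 ± 0.22 (adjusted p = 0.130), while *Krt14* was called higher at 1w pw1 (1.53 ± 0.29, adjusted p = 0.0197). The part of these markers in the change of *Lamb3*, *Dst* and *Col17a1* was not tested.

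The other members were not called in Lgr5 GL cells. The receptor genes *Itga6* and *Itgb4* read 131 to 196 and 205 to 511 CPM at 0w, 166 to 304 and 347 to 587 CPM at 1w pw1, and 84.6 to 91.3 and 124 to 203 CPM at 2w pw1. For both, all libraries at 2w pw1 and at 4w pw1 lay below all libraries at 0w. For *Itgb4* the margin at 2w pw1 was small, at 203 CPM in replicate b against 205 CPM in replicate c at 0w. The log2 fold changes of the 2 genes at 2w pw1 were -0.89 ± 0.28 and -1.21 ± 0.35. *Cd151* also lay below 0w at 2w pw1, with 93.1 to 141 CPM against 228 to 293 CPM at 0w (-1.12 ± 0.26, edgeR adjusted p = 0.216). *Lama3*, the α3 chain, read 109.9 to 230.1 CPM at 0w and 54.5 to 151 CPM at 4w pw1, and *Itga3* 31.4 to 164 CPM at 0w and 60.5 to 142 CPM at 4w pw1, both with overlap. *Plec* went the other way from *Dst*, from 494 to 669.6 CPM at 0w to 671 to 734 CPM at 4w pw1 and 689 to 938 CPM at 1w pw2, or 0.27 ± 0.24 and 0.55 ± 0.24 on the log2 scale, neither of them called.

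As a list, all 9 members were lower at 2w pw1, with a median log2 fold change of -1.12 beside 0.03 over all genes, and none was called, where 0.0% of all genes were called. At 4w pw1 8 of 9 were lower with a median of -0.88 beside -0.0049 over all genes. At 8w pw1 and at 1w pw2, 8 and 6 of 9 were lower with medians of -0.61 and -0.46, and no member was called where 0.0% of all genes were called in either comparison. At unadjusted p under 0.05 there were 6 members at 2w pw1, 7 at 4w pw1, 4 at 8w pw1 and 4 at 1w pw2, where 8.79%, 10.7%, 5.94% and 6.42% of all genes had one. At 2w pw1, DESeq2 and the likelihood ratio test of edgeR each called 4 members, *Lamb3*, *Cd151*, *Col17a1* and *Dst*, where they called 1.08% and 1.01% of all genes. Limma-voom and the fit with 2 surrogate variables each called *Lamb3* at 2w pw1, where each called 0.0166% of all genes. At 8w pw1 DESeq2 called *Lamb3* (0.377% of all genes), and at 1w pw2 DESeq2, limma-voom and the likelihood ratio test each called *Lamb3*, where they called 0.327%, 0.0277% and 0.222% of all genes.

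Within a library the ratio of the counts of a pair of genes does not depend on scaling between libraries (0.5 was added to each count). It does not remove an effect of GC content. GC content was 47.2% for *Itga6* and 59.1% for *Itgb4*, and 49.3% for *Dst* and 61.0% for *Plec*. It was 50.8% for *Lama3* and 55.4% for *Lamb3*. In Lrig1 GL cells a fit corrected for GC content called 0.322% of genes at 8w pw1, against 2.82% uncorrected. At 1w pw2 these shares were 0.217% and 1.23%. The part of GC content in the ratios was not tested. The pairs in this paragraph were picked after the values had been seen, so the ratios are given without a test. The ratio of *Lama3* to *Lamb3*, chains of the same laminin, was 0.300 to 0.326 at 0w in Lgr5 GL cells, 0.382 to 0.827 at 1w pw1, 0.541 to 1.01 at 4w pw1, 0.367 to 0.452 at 8w pw1 and 0.481 to 0.520 at 1w pw2. Every Lgr5 GL library after wounding lay above the libraries at 0w. For Lrig1 GL cells the libraries at 0w were spread from 0.325 to 1.36 and overlapped with those of all later time points. The ratio of *Itga6* to *Itgb4* kept to 0.312 to 0.700 in all Lgr5 GL libraries, whereas in Lrig1 GL cells it went from 0.681 to 0.947 at 0w to 1.42 to 2.64 at 8w pw1 and 1.64 to 4.25 at 1w pw2. The ratio of *Dst* to *Plec*, the plaque linkers, went from 0.654 to 1.56 at 0w to 0.238 to 0.249 at 4w pw1 in Lgr5 GL cells. For Lrig1 GL cells the *Dst* to *Plec* ratio was 0.677 to 1.19 at 0w, 0.397 to 0.512 at 2w pw1 and 1.35 to 2.47 at 8w pw1.

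**Figure D2:**
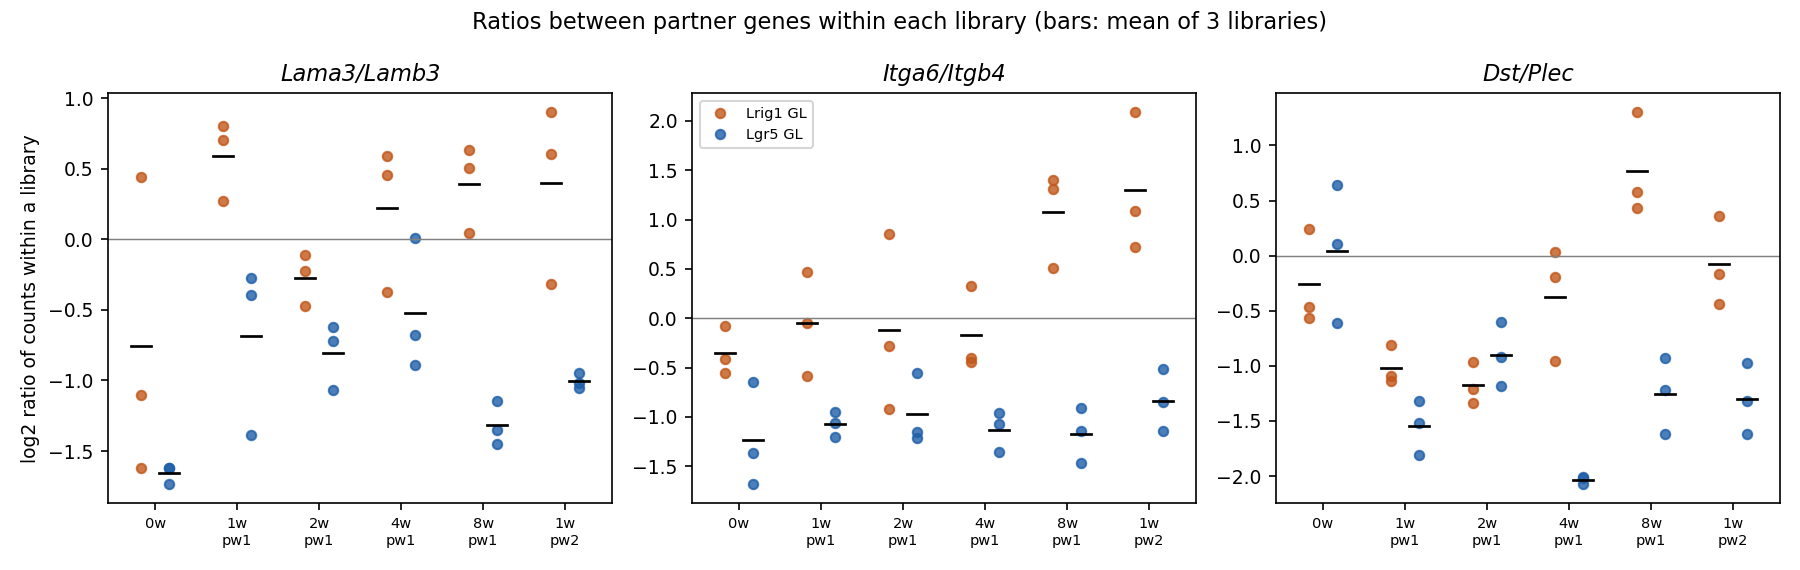
Ratio of counts between partner genes within each library (y axes, log2; 0 means equal counts; each panel has its own scale) at the 6 time points (x axis), with orange points for Lrig1 GL libraries, blue points for Lgr5 GL libraries and a bar at the mean of 3 libraries. The *Lama3*/*Lamb3* ratio lies at 0.300 to 0.326 at 0w in Lgr5 GL cells and higher in all their later libraries, and the *Itga6*/*Itgb4* ratio is above 1 in all Lrig1 GL libraries at 8w pw1 and 1w pw2 and below 1 in all Lgr5 GL libraries.

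No member passed the test in Lrig1 GL cells, and the members with the lowest p moved in opposite directions, *Lamb3* down and *Itga6* up at the late time points. Across the time course 0 of 9 members were called by edgeR's quasi-likelihood test, where 1.63% of the 14306 genes tested were called, and 3 members had an unadjusted p under 0.05, as did 20.5% of all genes. The lowest adjusted p were 0.0974 for *Lamb3*, 0.107 for *Itga6* and 0.140 for *Dst*. The likelihood ratio test of edgeR and DESeq2 each called *Lamb3* and *Itga6*, where they called 1999 and 1880 of the 14306 genes. Limma-voom called no member, where it called 117 genes.

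*Lamb3* stood at 189.9, 344 and 216 CPM at 0w, at 126, 117 and 136 CPM at 8w pw1 and at 110.0, 111 and 133 CPM at 1w pw2. The libraries of 4w pw1, 8w pw1 and 1w pw2 all lay below those at 0w. The log2 fold change was -0.99 ± 0.31 at 8w pw1 (edgeR adjusted p = 0.0762) and -1.08 ± 0.31 at 1w pw2 (adjusted p = 0.0864).

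*Itga6*, the α6 chain of the laminin receptor, stood at 125, 363 and 213 CPM at 0w, 433, 466 and 379.9 CPM at 1w pw1, 179, 205 and 334 CPM at 4w pw1, 460.2, 307 and 691 CPM at 8w pw1 and 455, 779 and 646 CPM at 1w pw2. All libraries at 1w pw1 and 1w pw2 were above all libraries at 0w, and those at 8w pw1 overlapped with replicate 2 at 0w. The log2 fold change was 1.06 ± 0.39 at 8w pw1 (edgeR adjusted p = 0.119) and 1.42 ± 0.39 at 1w pw2 (adjusted p = 0.0800). Without 0w replicate 2 both passed, at 1.52 (adjusted p = 0.0460) and 1.88 (adjusted p = 0.0483). The share of all genes called at each time point was not computed for that fit. *Itgb4*, whose product forms the receptor with α6, read 183 to 383 CPM at 0w and 183 to 303 CPM at 1w pw2, with a log2 fold change of -0.16 ± 0.34. *Itgb1*, the other partner of α6, was called higher at 1w pw2 (1.69 ± 0.39, edgeR adjusted p = 0.0398), where 1.23% of all genes were called. Its call was not followed in the other fits. At 1w pw2 a fit corrected for GC content called 0.217% of all genes, and 1 with 2 surrogate variables called none.

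**Figure D3:**
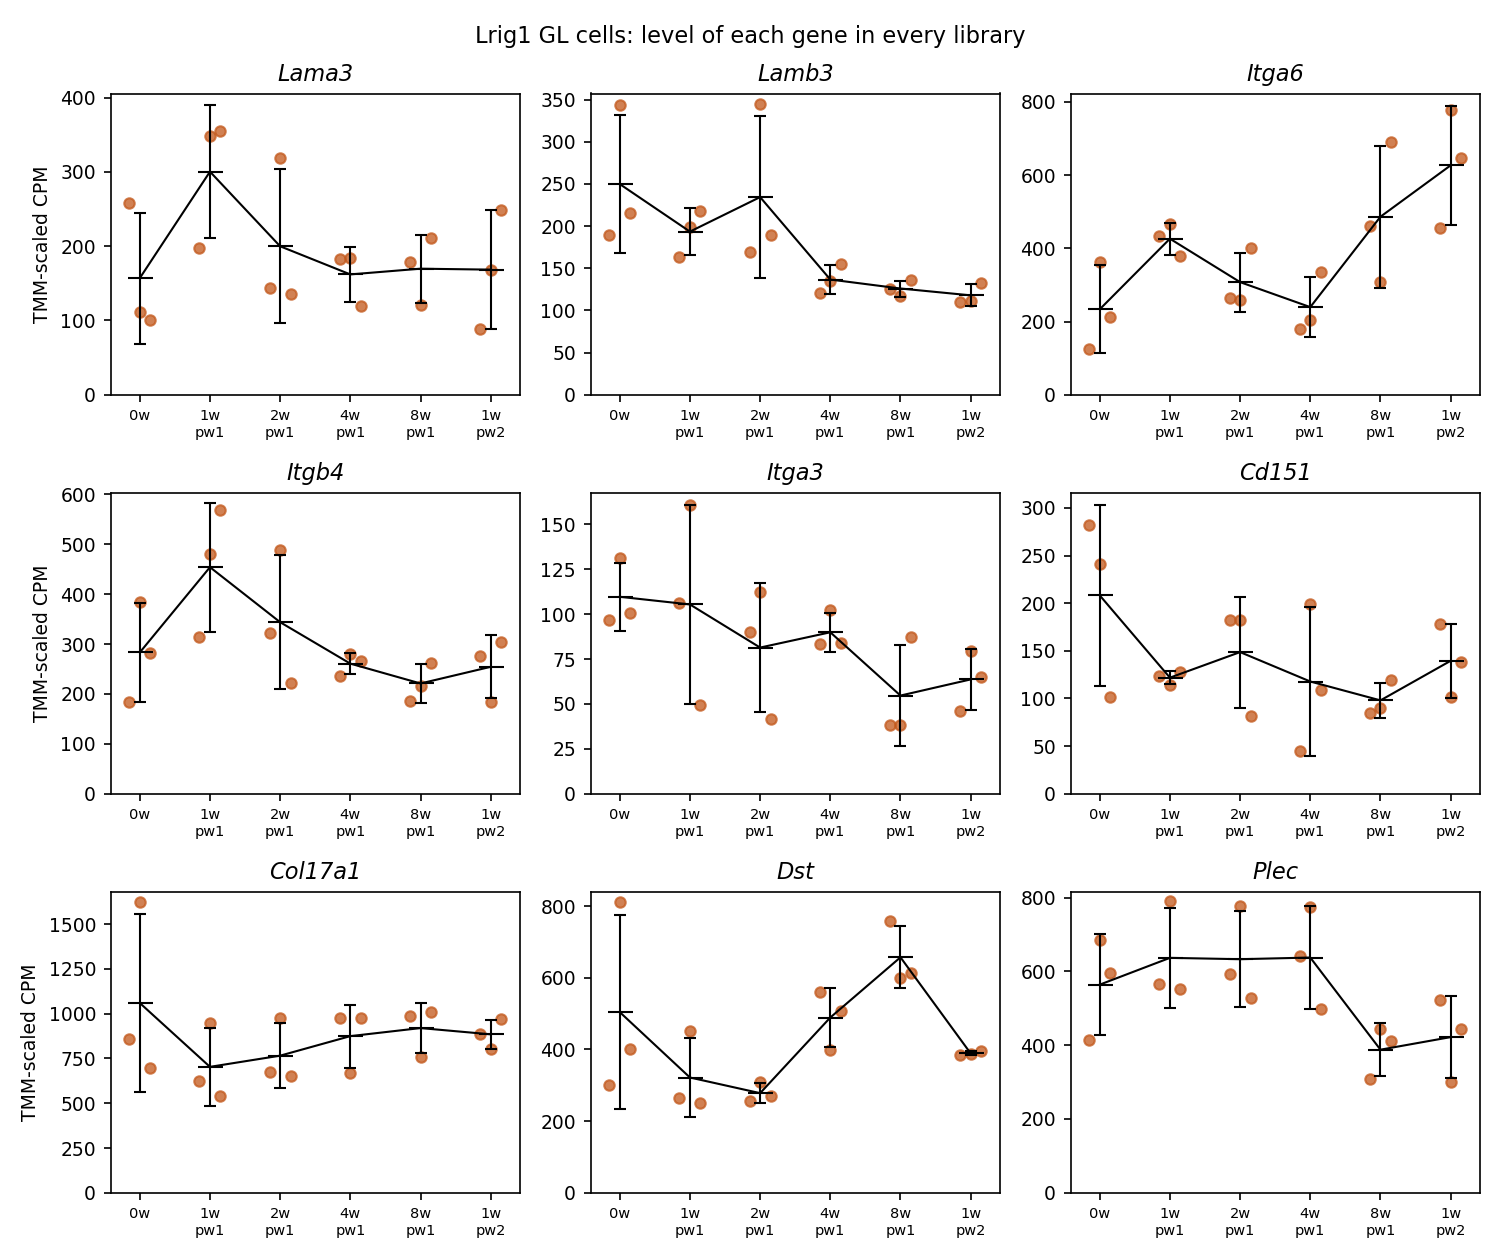
Level of each of the 9 members in Lrig1 GL cells (y axis, TMM-scaled CPM, starting at 0) at the 6 time points (x axis); points are single libraries, and bars with whiskers are the mean and SD of 3 libraries. *Itga6* reads 455 to 779 CPM at 1w pw2 against 125 to 363 CPM at 0w, and *Lamb3* 110.0 to 133 CPM against 189.9 to 344 CPM.

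The remaining members were noisier in Lrig1 GL cells. *Col17a1* read 694 to 1626 CPM at 0w and 760.3 to 1010.4 CPM at 8w pw1, with log2 fold changes between -0.59 and -0.20 at the 5 time points and an adjusted p of 0.722 across them. *Dst* read 299.7 to 811 CPM at 0w, 256 to 309 CPM at 2w pw1, 599.7 to 757 CPM at 8w pw1 and 385 to 395 CPM at 1w pw2, with log2 fold changes of -0.86 ± 0.33, 0.38 ± 0.32 and -0.37 ± 0.32. *Cd151* went from 101 to 282 CPM at 0w to 85.2 to 119 CPM at 8w pw1 (-1.09 ± 0.48, adjusted p = 0.180), and *Itga3* from 97.0 to 132 CPM to 38.2 to 87.4 CPM (-1.01 ± 0.46, adjusted p = 0.203). *Lama3* was at 101 to 259 CPM at 0w and 197 to 355 CPM at 1w pw1 (0.94 ± 0.46, adjusted p = 0.464). *Plec* stayed between 301 and 792 CPM in all 18 libraries.

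Against 0w, edgeR's quasi-likelihood test called no member at any of the 5 time points, at which 0.217%, 0.0%, 0.0419%, 2.82% and 1.23% of all genes were called, in order of time. At unadjusted p under 0.05 there were 1, 1, 1, 4 and 2 members, where 11.0%, 10.5%, 8.37%, 22.9% and 18.5% of all genes had one. The likelihood ratio test called *Lamb3* and *Itga6* at 1w pw2, where it called 5.77% of all genes. DESeq2 called the same pair at 1w pw2 and *Itga6* at 8w pw1, where it called 7.28% and 11.1% of all genes, and limma-voom called none. The median log2 fold change of the members was -0.07, -0.09, -0.12, -0.36 and -0.37, beside medians between -0.06 and -0.01 over all genes. The 6 bulge markers were lower here as well, going from a sum of 7043 to 11369 CPM at 0w to 1280 to 3013 CPM at 1w pw1 and 1898 to 4281 CPM at 1w pw2, and 5 or 6 of the 6 had a log2 fold change below 0 at every time point. So did 5 or 6 of the 6 sebaceous markers, with medians between -1.52 and -0.98, whose sum went from 657 to 2548 CPM at 0w to 749 to 804 CPM at 8w pw1. The 8 differentiation markers were mixed, with 7 below 0 at 8w pw1 (median -0.89) and 7 above 0 at 4w pw1 (median 0.60). The part of these markers in the levels of the members was not tested. The libraries at 0w were the least alike of this population, with a mean correlation to the other libraries of their group of 0.701 to 0.734.

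**Figure D4:**
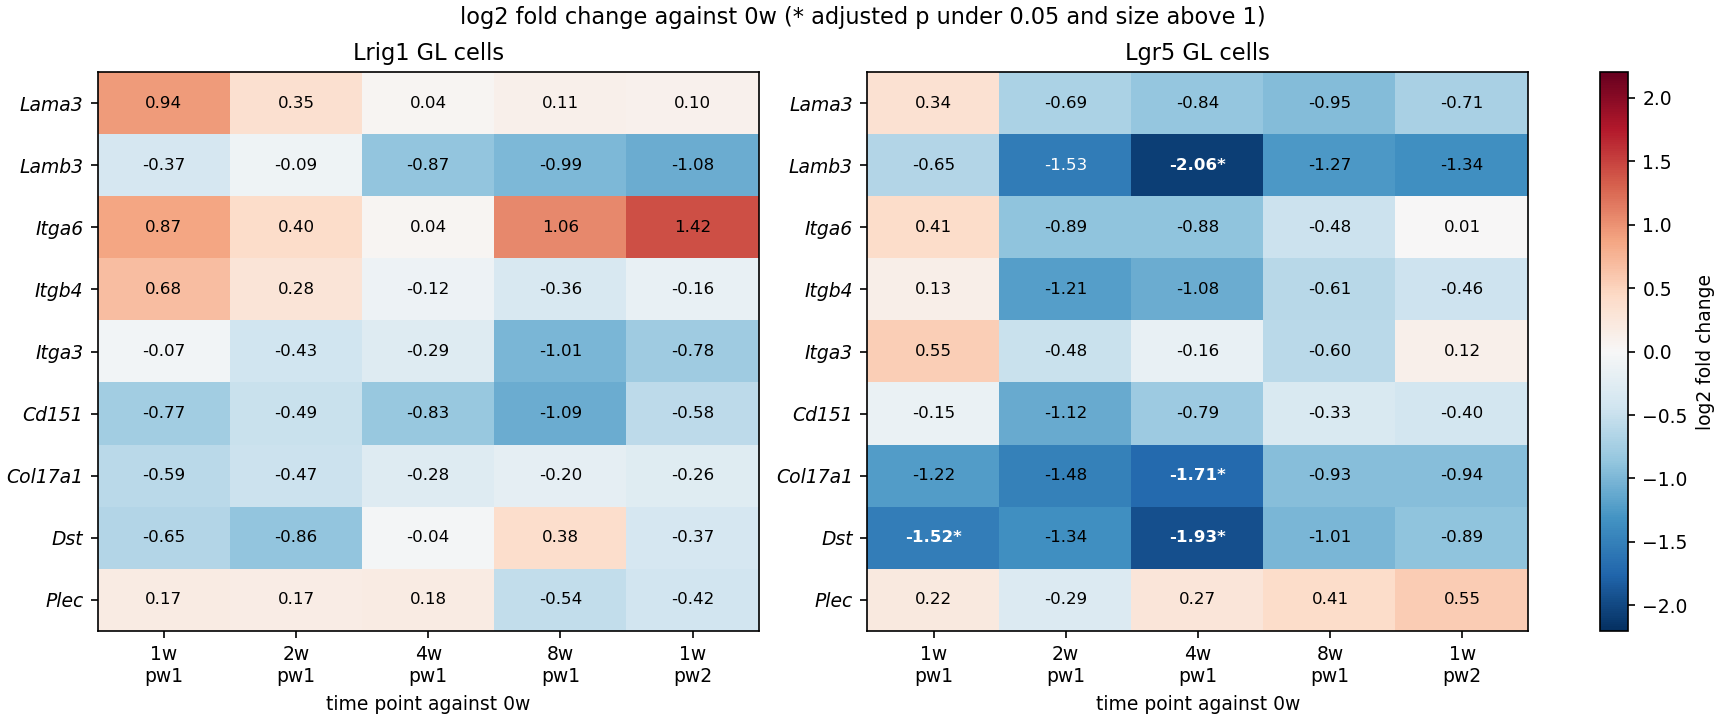
Log2 fold change against 0w (colour and printed value; red higher, blue lower) of the 9 members (rows) at the 5 later time points (columns), for Lrig1 GL cells on the left and Lgr5 GL cells on the right; an asterisk marks an adjusted p under 0.05 with a size above 1. The called members are all in Lgr5 GL cells, *Dst* at 1w pw1 and *Lamb3*, *Col17a1* and *Dst* at 4w pw1.

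The comparison of 1w pw2 with 1w pw1 asks whether the genes stood at another level 1 week after the second wound than 1 week after the first. No member was called in either population by edgeR, DESeq2 or limma-voom, where edgeR called 0.0% of all genes for Lrig1 and 0.266% for Lgr5, and 2 members in each population had an unadjusted p under 0.05, as did 8.87% and 16.8% of all genes. In Lgr5 GL cells *Lama3* had the lowest adjusted p (-1.05 ± 0.37, adjusted p = 0.185), with 351, 186 and 154 CPM at 1w pw1 and 102, 113 and 119 CPM at 1w pw2, which did not overlap. *Itgb4* in Lrig1 GL cells had the lowest adjusted p (-0.84 ± 0.34, adjusted p = 0.485). Set against 8w pw1, the libraries at 1w pw2 showed no called member either, where edgeR called 0.00699% of all genes for Lrig1 and 0.0% for Lgr5, with 1 and 0 members at unadjusted p under 0.05 (5.72% and 3.83% of all genes) and none by DESeq2 or limma-voom.

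To set the members against the cell's basal keratin, each count was divided by the geometric mean of the *Krt5* and *Krt14* counts in the same library, and 1w pw2 was compared with 0w. With 3 libraries against 3, the smallest two-sided p that an exact permutation test can give is 0.1, so no call was possible. For Lrig1 GL cells 3 of 9 members did not overlap, *Itga6* higher (1.56 on the log2 scale) and *Lamb3* (-1.002) and *Itga3* (-0.77) lower, where 24.3% of all genes did not overlap. For Lgr5 GL cells 2 of 9 did not overlap, *Plec* higher (0.82) and *Lamb3* lower (-1.02), where 15.4% of all genes did not overlap. Both shares were near the background. Without 0w replicate c the count in Lgr5 GL cells was 7 of 9, and without 0w replicate a it was 4 of 9. With a library left out, non-overlap comes about more easily. The share over all genes was not computed for these smaller sets, so no conclusion is drawn from the 2 counts. *Lamb3* was the member whose ratio to the keratins lay lower without overlap in both populations. The share of all genes that did so in both was not computed, so no conclusion is drawn from it.

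At 0w *Lamb3* and *Col17a1* were lower in Lrig1 GL cells than in Lgr5 GL cells, and 2 of 9 members were thus called where 2.86% of the 16153 genes tested in both tables were called and 1.76% were called lower in Lrig1 GL cells. With both populations scaled together, *Lamb3* read 164, 298 and 192 CPM in Lrig1 GL cells and 788, 701 and 409 CPM in Lgr5 GL cells, without overlap (-1.54 ± 0.30, edgeR adjusted p = 0.00345). *Col17a1* read 743, 1412 and 617 CPM in Lrig1 GL cells and 3349, 3395 and 1421 CPM in Lgr5 GL cells, where the highest Lrig1 GL library almost reached the lowest Lgr5 GL library (-1.56 ± 0.33, adjusted p = 0.00759). *Lamb3* was called in 36 of 36 fits that left out 1 library, and *Col17a1* was lost without Lrig1 0w replicate 1 (adjusted p = 0.0531), Lrig1 0w replicate 3 (0.0515) or Lgr5 0w replicate b (0.0544). *Dst* (-0.71 ± 0.32) was called without Lrig1 0w replicate 2 (adjusted p = 0.0457). Of the other 7 members 6 were lower in Lrig1 GL cells, by up to 0.87 on the log2 scale for *Itgb4*, and *Itga6* was 0.18 ± 0.33 higher, none of them called.

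The cells also differed in their markers at 0w. *Krt15* was lower in Lrig1 GL cells (-1.84 ± 0.49, edgeR adjusted p = 0.0339), and *Krt1*, *Krt10* and *Krtdap* of the differentiating layers and *Scd1*, *Mgst1* and *Pparg* of the sebaceous gland were higher. *Col1a1* and *Col1a2*, which mark fibroblasts, were lower in Lrig1 GL cells. The fibroblast markers summed to 7.70 to 41.6 CPM there, where 5 of the 6 had a row, and to 122 to 358 CPM in Lgr5 GL cells. The part of these markers in the levels of *Lamb3* and *Col17a1* was not tested, and the population cannot be told apart from the mouse line and the count table. A single transcript of unknown function, *Gm12415*, took 12.04 to 52.1% of the counts in Lgr5 GL libraries and at most 0.0002% in Lrig1 GL libraries. Leaving it out of the Lgr5 GL fit left the same 3 members called across the time course. The fit of both populations together was not run without it, so its part in the difference at 0w was not tested.

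**Figure D5:**
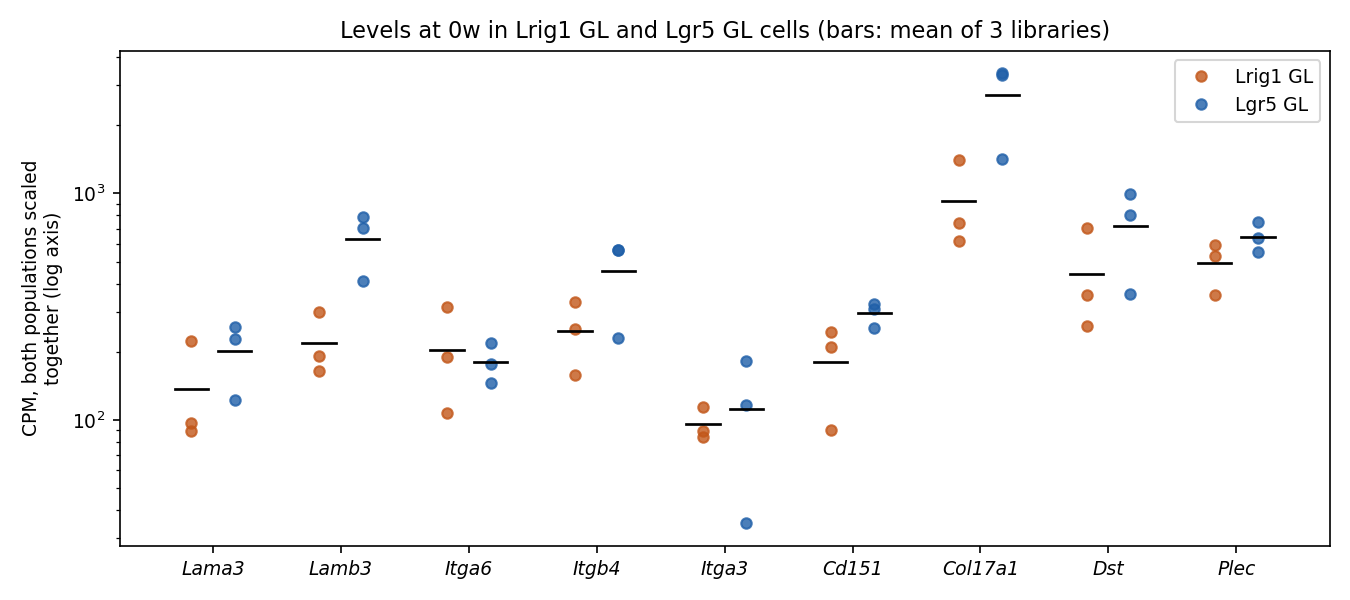
Level at 0w of the 9 members (x axis) in Lrig1 GL libraries (orange) and Lgr5 GL libraries (blue), as CPM with both populations scaled together (y axis, log scale); points are single libraries and bars are means of 3. *Lamb3* lies at 164 to 298 CPM in Lrig1 GL cells and 409 to 788 CPM in Lgr5 GL cells.

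Whether the change from 0w differed between the populations was tested for each member at each of the 5 later time points. None of the 45 tests was called by edgeR's quasi-likelihood test, where 0.0495%, 0.0%, 0.0929%, 1.11% and 0.155% of all genes were called in order of time, and 0, 4, 3, 3 and 2 members had an unadjusted p under 0.05, as did 9.34% to 17.6% of all genes. The lowest adjusted p were those of *Itga6* at 8w pw1 (1.599 ± 0.47 higher in Lrig1 GL cells, adjusted p = 0.0781), *Dst* at 8w pw1 (1.46 ± 0.46, adjusted p = 0.0947) and *Dst* at 4w pw1 (1.84 ± 0.46, adjusted p = 0.131). The likelihood ratio test called *Dst* at 4w pw1 and *Itga6* at 8w pw1, where it called 0.922% and 4.29% of all genes. DESeq2 called these and *Dst* at 8w pw1, where it called 1.04% of all genes at 4w pw1 and 5.42% at 8w pw1. Without Lrig1 0w replicate 2, the same 3 passed the quasi-likelihood test, with adjusted p of 0.0196 for *Dst* at 4w pw1, 0.0249 for *Itga6* at 8w pw1 and 0.0238 for *Dst* at 8w pw1. The share of all genes called at each time point was not computed for that fit. The falls of *Lamb3*, *Dst* and *Col17a1* that passed in Lgr5 GL cells alone were therefore not shown to differ from those in Lrig1 GL cells.

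Further lists were counted by the same tests. The calls of single genes in these lists were not followed in the other fits. Of 15 other basement membrane genes tested in Lgr5 GL cells, 2 were called across the time course, *Fras1* and *Npnt*. At 1w pw1 2 of the 15 were called, both lower: *Agrn*, which encodes the heparan sulphate proteoglycan agrin (-1.77 ± 0.36, edgeR adjusted p = 0.0272), and *Fras1*, a basement membrane adhesion protein (-3.21 ± 0.52, adjusted p = 0.0136). At 1w pw2 against 1w pw1 *Fras1* (3.38 ± 0.52, adjusted p = 0.0111) and *Npnt*, the integrin ligand nephronectin (1.93 ± 0.34, adjusted p = 0.0188), were higher. *Fras1* read 19.99 to 24.7 CPM at 0w, 1.45 to 4.53 CPM at 1w pw1 and 20.7 to 27.5 CPM at 1w pw2 in Lgr5 GL cells. The median log2 fold change of the 15 against 0w was -0.91 at 1w pw1 and -0.90 at 8w pw1, with 13 of 15 below 0 at both, and 0.23, 0.20 and 0.10 at 2w pw1, 4w pw1 and 1w pw2. None of the 15 was called at these last 4 time points.

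None of 17 focal adhesion genes tested was called in Lgr5 GL cells at any time, nor were the 4 other tetraspanins or the 7 genes of matrix processing. Of the 4 other plakins, the relatives of *Dst* and *Plec*, *Ppl* was called lower at 1w pw1 in Lgr5 GL cells (-2.63 ± 0.40, edgeR adjusted p = 0.0136). None of the 14 other basement membrane genes tested in Lrig1 GL cells was called at any time. The desmosomal plakin *Dsp* was called higher there at 8w pw1 (2.18 ± 0.39, adjusted p = 0.0160) and at 1w pw2 (1.92 ± 0.39, adjusted p = 0.0261), and the sheddase *Adam10* at 1w pw2 (1.84 ± 0.31, adjusted p = 0.0164). Among 16 focal adhesion genes in Lrig1 GL cells *Itgav* was called higher at 8w pw1 (2.48 ± 0.65, adjusted p = 0.0479) and *Itgb1* at 1w pw2, and of the tetraspanins *Cd63* was called lower at 8w pw1 (-1.23 ± 0.27, adjusted p = 0.0304). At 8w pw1 the changes of *Itgb1* and *Itgav* also differed between the populations (2.31 ± 0.49 and 2.83 ± 0.72 higher in Lrig1 GL cells, adjusted p of 0.0236 and 0.0483). At 0w *Itgb1* (-1.27 ± 0.35) and *Cd63* (-1.21 ± 0.29) were lower in Lrig1 GL cells.

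Genes whose levels followed the 9 members most closely were ranked by Pearson's r, over the 18 libraries of a population, with the mean of the members' scaled log2 CPM. The points share their library, its depth and its keratinocyte content, so r is a description. Among the first 5 of 3149 genes in Lgr5 GL cells were *Sparc* (0.845), *Pqlc1* (0.835), *Cd47* (0.813) and *Mindy1* (0.758). Of 4349 genes in Lrig1 GL cells the first 5 were *Ubr4* (0.775), *Itpr2* (0.750), *Tgfbi* (0.741), *Tmc6* (0.723) and *Prrc2b* (0.716). No gene stood among the first 5 in both populations. *Krt5* ranked at place 6 in Lrig1 GL cells (0.700) and place 32 in Lgr5 GL cells (0.671). The other basal keratin, *Krt14*, ranked only at place 758 (0.236) and place 647 (0.326).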

How the data were processed

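Per the labels and the study's methods, the authors trimmed the reads with Trim Galore 0.5.0, aligned them to mm10 (GRCm38) with HISAT2, used featureCounts with GENCODE M20 to count exonic reads for each gene name, and deposited raw counts per library, in 1 table for each population. Replicates were not pooled. Nothing in the sources used here says that the counting used strand, so reads shared with antisense genes (7.66% of the exon bases of *Itgb4* and 7.04% of those of *Cd151*) cannot be told apart.

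The counts were filtered with filterByExpr (minimum count 10), scaled by TMM and fitted with edgeR 4.0.16 (quasi-likelihood, 1 mean per group, prior count 0.125) in R 4.3.3, for each population over its 6 time points and for both together over the genes in both tables. P-values were Benjamini-Hochberg adjusted over all genes tested. A call against 0w, or between populations at 0w, needed a log2 fold change above 1 together with an adjusted p under 0.05. The time course needed an adjusted p under 0.05 in the F-test over all time points, and a log2 fold change above 1 at any time point. Other contrasts needed the adjusted p alone. The likelihood ratio test, DESeq2 1.42.0, limma-voom (limma 3.58.1), surrogate variables (sva 3.50.0), another scaling, no filter, a GC correction, the replicate block, another prior count and leaving out each library were alternatives. The code was tested on simulated data.

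Replicates are libraries that the labels give as separate samples. The study gives 3 mice for this time course, and the labels do not tie a library to a mouse, so p-values measure the spread between libraries. Of the 36 libraries, 21 could be assigned to a group but not to a labelled sample, and their numbers name a library only. Genes named beside the 9 members were the keratins and markers that moved with a result, up to 2 called genes of each pathway list per comparison, and the 5 genes most like the members in each population at a mean of 50 CPM or more. Where a list had 3 or fewer calls, all were named, except that 1 gene of the basement membrane list, left out of its counts, and 1 of the 5 most like genes are not reported here. The members, lists and tests were chosen with earlier results of these data known. Every member had at least 56 counts in every library. These are reads from small pools of cells that were amplified before sequencing, so they do not bound the sampling error of a value.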

Additional observations from a re-analysis of the deposited data

How the results depend on the processing

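In Lgr5 GL cells, 3 members were called across the time course and 4 member and time point pairs against 0w. The likelihood ratio test gave 5 and 10, DESeq2 5 and 11, and limma-voom with quality weights 5 and 7. With 2 surrogate variables the counts were 2 and 4, without *Col17a1* across the time course and *Dst* at 1w pw1 and with *Lamb3* at 2w pw1. Leaving out 1 library gave 1 to 5 and 0 to 5. For Lrig1 GL cells, with 0 and 0 in the quasi-likelihood fit, the likelihood ratio test gave 2 and 2, DESeq2 2 and 3, and leaving out 1 library 0 to 0 and 0 to 2. For changes that differed between populations (0), the likelihood ratio test gave 2, DESeq2 3 and leaving out 1 library 0 to 3. For the difference at 0w (2), leaving out 1 library gave 1 to 3. The number of all genes called in the fits that left out a library is not given here, so no conclusion is drawn from these ranges. With 1 library left out, the non-overlapping keratin ratios ranged from 3 to 4 for Lrig1 and from 2 to 7 for Lgr5. The share over all genes was not computed for these smaller sets. The comparisons of 1w pw2 with 1w pw1 and 8w pw1 stayed at 0 members under every alternative run. No called value changed sign.

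The replicate numbers did not pair the libraries: deviations of same-numbered libraries from their group means correlated at a mean r of -0.0064 for Lrig1 and 0.0039 for Lgr5. With the replicate block, the counts in Lgr5 GL cells were 0 and 0, with adjusted p of 0.0629 for *Lamb3*, 0.119 for *Dst* and 0.120 for *Col17a1* across the time course.

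Over all genes, 233 for Lrig1 and 203 for Lgr5 were called across the time course, against 1999 and 1975 by the likelihood ratio test, 1880 and 1684 by DESeq2, 117 and 353 by limma-voom, 9 and 64 with 2 surrogate variables and 16 and 46 with the replicate block. The GC correction in Lrig1 GL cells gave 30 and no filter 149. Calls against 0w summed over the 5 time points were 617 and 260, against 2782 and 1707 by the likelihood ratio test, 3356 and 2028 by DESeq2, 46 and 72 with 2 surrogate variables and 92 and 143 with the block, and in Lrig1 GL cells 269 by limma-voom, 131 with the GC correction and 384 with no filter. At 1w pw2 against 1w pw1 in Lrig1 GL cells no gene was called by the quasi-likelihood test, against 36 by the likelihood ratio test, 173 by DESeq2 and 15 by limma-voom. At 1w pw2 against 1w pw1 in Lgr5 GL cells, 48 genes were called, against 765 by the likelihood ratio test, 980 by DESeq2, 131 by limma-voom and 1 with 2 surrogate variables. At 1w pw2 against 8w pw1, 1 and 0 genes were called, against 25 and 5, 51 and 18, and 15 and 0 by these tools. Changes that differed between populations numbered 227, against 1612 by the likelihood ratio test and 1974 by DESeq2, and differences at 0w 462, against 955 and 1065. The cause of these differences was not tested. Depth and spread limit what can be called, with 3 libraries per group and a biological coefficient of variation of 0.698 and 0.662.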
